A study of Sus scrofa with 6 samples.

Results

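The enzymes that write DNA methylation (DNMT1, DNMT3A, DNMT3B), the proteins that read it (MBD1, MBD2, MBD4) and the dioxygenases that begin its removal (TET1, TET2, TET3) were followed at the mRNA level in 2 pig muscles, longissimus dorsi (LDM) and psoas major (PMM). Of these 9 genes, 3 (DNMT1, DNMT3A and MBD1) were found on the array by gene symbol or by the protein name in the probe description, with 8 of the 43603 probes. In all, 3535 genes could be named on the array. A further 2 genes, DNMT3B and MBD2, were present only as predicted pig gene models described as similar to them, with 3 probes, and are given apart. TET1 could be tied only to a model of uncertain gene, and no probe was matched to MBD4, TET2 or TET3. None of the 8 probes of DNMT1, DNMT3A and MBD1 differed between the muscles beyond the spread between arrays.

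The LDM group was 3 arrays of longissimus dorsi and the PMM group 3 arrays of psoas major, all from untreated female Landrace pigs slaughtered at 210 days of age after a period without feed. Both muscles were taken from each of 3 unrelated pigs, and neither the labels nor the methods tie the replicate numbers to animals. LDM is described by the study as glycolytic and PMM as oxidative, and it set their DNA methylation beside their mRNA. The comparison here asks whether the mRNAs of the methylation machinery itself differed between them. DNA methylation itself was not analysed here. Whole muscle was sampled, so fewer cells of a type and less RNA per cell cannot be told apart in any value below.

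In mammals, methyl groups sit mainly on cytosines of CpG dinucleotides. DNMT1 copies the pattern onto the new strand after DNA replication, whereas DNMT3A and DNMT3B set methylation on unmethylated DNA. Some proteins with a methyl-CpG-binding domain, MBD1 and MBD2 among them, recruit repressive complexes to methylated DNA, and MBD4 is also a DNA glycosylase. TET enzymes oxidize 5-methylcytosine with 2-oxoglutarate as cosubstrate, after which base excision repair can restore cytosine. In adult skeletal muscle most nuclei lie in fibres, which do not divide.

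The arrays measured each mRNA through 60-base probes. Shown here are the 3 DNMT1 and DNMT3A probes with at least 2 of their 3 forward reading frames free of stop codons. The other probes of these genes, the brightest of each among them, are not shown. Each of those shown is written 5′ to 3′ as the files give it. The files mark every one of these probes as unmapped, so no position in the genome is given.
DNMT1 A_72_P351118: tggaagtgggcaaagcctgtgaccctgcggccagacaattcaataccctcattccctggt
DNMT1 A_72_P393413: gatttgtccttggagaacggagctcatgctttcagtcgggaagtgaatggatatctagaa
DNMT3A A_72_P343253: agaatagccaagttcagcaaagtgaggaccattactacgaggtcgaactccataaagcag

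Values are the log2 of the spot intensity minus the 75th percentile of its array, called the normalized signal, so that 0 is the level of that percentile. Probes that every array of at least one muscle marked as well above the background were tested with limma (two-sided, Benjamini-Hochberg), and a probe or gene was called at an adjusted p under 0.05. Between 58.5% and 72.4% of the spots of an array were well above the background, and 25835 probes were tested. The extraction protocol in the labels mentions adipose tissue, but 12 of 12 skeletal muscle fibre markers were detected well above the background on each of the 6 arrays. The summed level of these markers was 5144 to 8574 times the 75th percentile in LDM and 6349 to 10169 times in PMM. The summed level of 6 adipocyte markers was 77.5 to 237 times that percentile in LDM and 82.2 to 256 times in PMM. FABP4 was the strongest of them on every array, and the markers went both ways. ADIPOQ, PLIN1 and CIDEC were lower in PMM in all 3 replicate numbers (log2 PMM minus LDM -0.63, -1.03 and -0.86), as for 21.4% of genes with a value on all arrays. FABP4 and LPL were higher in all 3 (0.10 and 1.12), as for 20.2%, and LEP was mixed (-0.10). Same-numbered arrays were scanned on the same day and deviated together from their muscle means, so differences within each number are given beside the pooled ones. Standard errors (SE), intervals and p-values are from comparisons without pairing unless a block is named.

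DNMT1, the maintenance methyltransferase, was read by 4 probes, each of them well above the background on every array. Probe A_72_P178136 had a normalized signal (log2) of 2.16, 2.01 and 2.53 on the LDM arrays, in the order of replicates 1, 2 and 3, and of 2.35, 1.99 and 2.29 on the PMM arrays. The muscles overlapped, and the mean of PMM was within 0.03 of that of LDM (log2 difference PMM minus LDM -0.03, SE 0.30, 95% confidence interval -0.71 to 0.66; limma adjusted p = 1.0). Probe A_72_P351118 gave -0.80, -1.24 and -0.17 in LDM and -0.31, -1.18 and -0.54 in PMM, again with overlap and replicate 2 lowest in both muscles. Its difference was 0.06 (SE 0.39, 95% confidence interval -0.83 to 0.95). Probe A_72_P393413 gave -0.99, -0.49 and -0.47 in LDM and -0.13, -0.40 and -0.72 in PMM. Here the difference was 0.24 (SE 0.32, 95% confidence interval -0.49 to 0.96), with PMM above LDM by 0.86 in replicate 1 and 0.09 in replicate 2 but below it by 0.24 in replicate 3.

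The fourth DNMT1 probe, A_72_P174066, gave -3.19, -2.52 and -0.85 in LDM and -2.68, -2.45 and -2.93 in PMM. LDM replicate 3 stood 2.01 above the mean of the other LDM arrays, whereas the other 5 arrays lay between -3.19 and -2.45. The difference of -0.50 (SE 0.56, 95% confidence interval -1.78 to 0.77) therefore rested on 1 array, and without it PMM was 0.16 higher. The 4 probes carry the same DNMT1 accession but did not give 1 direction, with LDM higher on 2 and PMM higher on 2. DNMT1 is used by dividing cells, and of 7 markers of such cells 3 were measured (TOP2A, CCNB1 and CDK1). Their summed level was 1.01, 1.60 and 3.39 times the 75th percentile on the LDM arrays and 1.1, 1.49 and 2.23 times on the PMM arrays, highest in replicate 3 of both muscles. CCNB1 alone was highest in replicate 3 of LDM but in replicate 1 of PMM. The summed endothelial, leukocyte and fibroblast markers were highest in replicate 3 of both muscles too. DCN was the strongest fibroblast marker on every array. COL3A1 was instead lowest in replicate 3 of both muscles (log2 1.42 in LDM and 0.67 in PMM). The part of these cell types in the DNMT1 values was not tested.

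DNMT3A, a de novo methyltransferase, was read by 3 probes. Probe A_72_P035681 gave 2.98, 2.08 and 2.30 in LDM and 3.50, 2.06 and 2.10 in PMM. Probe A_72_P124656 gave 3.25, 2.28 and 2.33 in LDM and 3.67, 2.35 and 2.30 in PMM. These probes share 53 of their 60 bases and are not separate readings of the mRNA. Probe A_72_P343253, whose ends overlap neither of them, gave 2.22, 1.20 and 1.63 in LDM and 3.14, 1.28 and 1.35 in PMM. All 3 probes were highest in replicate 1 of each muscle, by 0.79, 0.95 and 0.80 over the mean of the other arrays in LDM and by 1.42, 1.34 and 1.83 in PMM, in the order above.

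The differences of DNMT3A between the muscles were smaller than this split between replicate numbers. PMM minus LDM was 0.10 (SE 0.46), 0.15 (SE 0.46) and 0.24 (SE 0.54) on the 3 probes, and limma gave an adjusted p of 1.0 for each. Within replicate 1, PMM was higher on every DNMT3A probe, by 0.52, 0.415 and 0.92. In replicate 2 the differences were -0.02, 0.07 and 0.08, and in replicate 3 they were -0.20, -0.03 and -0.28. A signal that was highest in replicate 1 of both muscles was common on the array, found for 29.2% of the probes with a value on all arrays. Replicate 1 was also the number with the highest summed muscle fibre markers in each muscle (8574 against 5144 and 7254 in LDM, 10169 against 6349 and 7043 in PMM) and the lowest summed adipocyte markers (77.5 against 237 and 230 in LDM, 82.2 against 256 and 240 in PMM). The summed endothelial, leukocyte, fibroblast and dividing-cell markers were also lowest in replicate 1 of both muscles. Not every single marker followed its sum. COL3A1 was highest in replicate 1 of LDM, and CCNB1 was lowest in replicate 2 of both muscles. The part of these cell types in the DNMT3A values was not tested.

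MBD1, a reader of methylated CpG, was found through 1 probe, A_72_P002681, of a transcript contig described as part of a protein like dog MBD1. It gave -1.27, -1.56 and -2.01 in LDM and -1.23, -1.64 and -2.26 in PMM, in the same order of replicates in both muscles. The difference was -0.10 (SE 0.37, 95% confidence interval -0.95 to 0.75), with 0.03, -0.08 and -0.24 in replicates 1, 2 and 3. The range of the means of the replicate numbers, 0.88, was wider than that difference. For 28.3% of the probes with a value on all arrays, replicate 3 was the lowest in both muscles, as here.

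**Figure D1:**
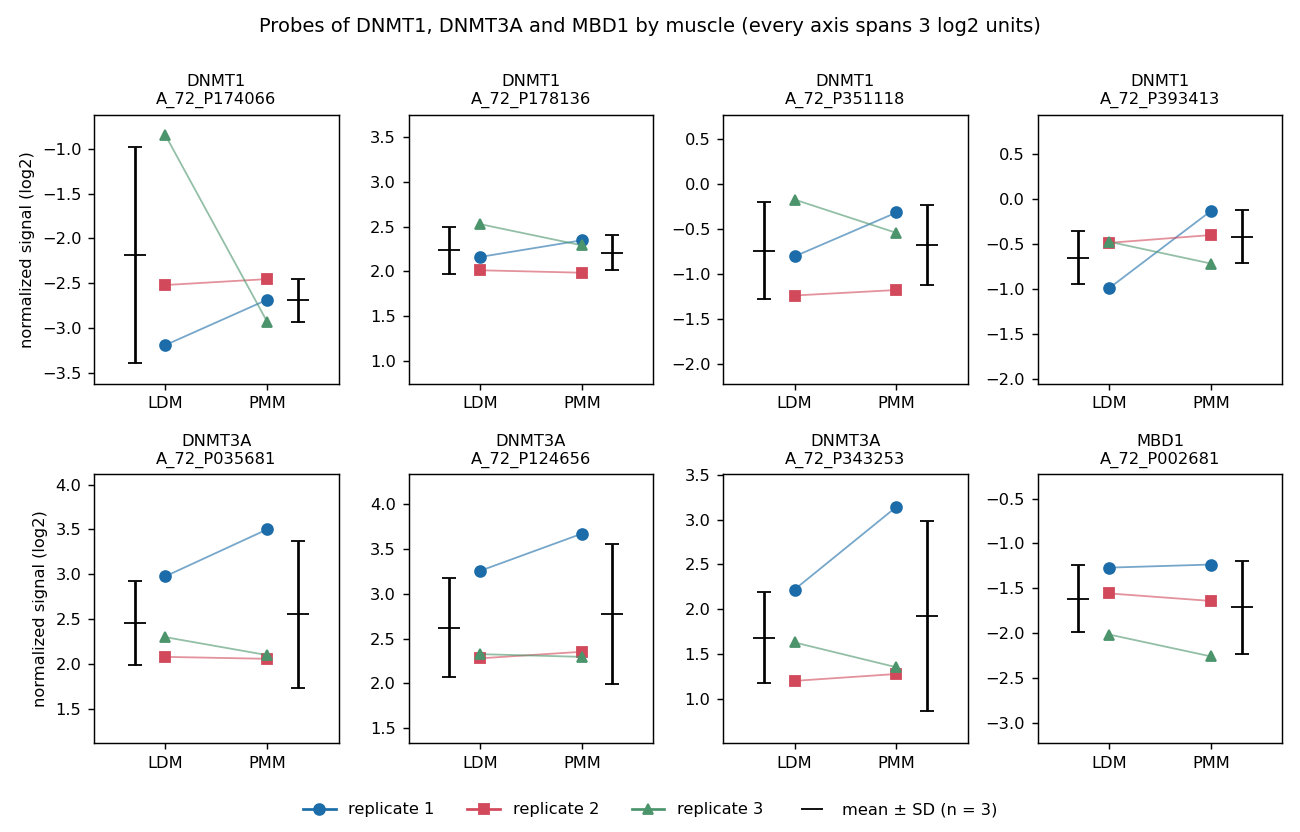
Normalized signal (log2, relative to the 75th percentile of the array) of the 8 probes of DNMT1, DNMT3A and MBD1 in LDM and PMM, where lines join arrays with the same replicate number and bars give the mean ± SD of 3 arrays. The muscles overlap on every probe, replicate 1 is highest on the DNMT3A probes, and LDM replicate 3 stands alone on DNMT1 A_72_P174066.

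Over the 8 probes of DNMT1, DNMT3A and MBD1, limma called 0, against 0.031% of all probes tested, and 0 had an unadjusted p under 0.05, against 2.63% of all probes. With the replicate number as a block, 0 of the 8 were called, against 0.0658% of all probes, and again 0 had an unadjusted p under 0.05, against 11.1%. With the slide as a random block, limma called 0 of the 8, against 1.16% of all probes. On 0 of the 8 did all arrays of one muscle lie above all arrays of the other, which held for 5.94% of the probes with a value on all arrays. The lowest exact permutation p was 0.40, where 3 arrays against 3 allow 0.1 at the lowest. PMM had the higher mean on 5 probes and the lower on 3. On 0 of the 8 was the direction the same in all 3 replicate numbers. Of the probes with a value on all arrays, PMM was higher in all 3 on 16.4% and lower in all 3 on 19.4%. On 7 of the 8, the exception being DNMT1 A_72_P393413, the means of the replicate numbers spread over a wider range than the difference between the muscles. The share of all probes for which this held was not computed, so it is not read as a trait of these genes. The median difference was 0.08 on these probes and -0.04 over all probes tested.

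A p above the threshold does not show that the muscles had the same levels. The 95% confidence intervals without the block reached a difference of 1.64-fold on the most precise probe, DNMT1 A_72_P178136, and 3.43-fold on the least precise, DNMT1 A_72_P174066. For DNMT3A A_72_P343253 the interval of PMM minus LDM ran from -0.99 to 1.47 on the log2 scale without the block and from -0.43 to 0.91 with it.

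DNMT3B and MBD2 were not named by symbol on the array, and their probes belong to gene models predicted as similar to them. The DNMT3B model (A_72_P410268), the other de novo methyltransferase, gave -2.14, -2.12 and -1.36 in LDM and -2.39, -2.04 and -1.49 in PMM. Replicate 3 was highest in both muscles, as on 19.4% of the probes with a value on all arrays, and the difference of -0.10 (SE 0.37) was within the spread. MBD2 links methylated DNA to the NuRD corepressor complex. Probe A_72_P153591 of its model gave 3.53, 3.18 and 3.62 in LDM and 3.21, 2.96 and 3.18 in PMM, with PMM below LDM in 3 of 3 replicate numbers although the groups overlapped. Probe A_72_P310598 gave 4.19, 3.81 and 3.87 in LDM and 3.78, 3.70 and 3.42 in PMM, with every PMM array below every LDM array.

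The difference of the MBD2 model was -0.33 on A_72_P153591 (SE 0.29, 95% confidence interval -0.996 to 0.34) and -0.32 on A_72_P310598 (SE 0.29, 95% confidence interval -0.99 to 0.35). Neither passed the test, with a limma adjusted p of 1.0 without the replicate block and of 0.54 and 0.56 with it. The exact permutation p was 0.2 and 0.1, and 0.1 is the smallest possible. For comparison, PMM was below LDM in all 3 replicate numbers on 19.4% of the probes with a value on all arrays, and all PMM arrays lay below all LDM arrays on 2.87%.

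The identity of TET1 on the array was not settled. A pair of probes is described as similar to a CXXC-type zinc finger protein, an older name of TET1, but the number of that model (LOC100153073) belongs to SLC25A16 in the RefSeq table of Sscrofa11.1, in which SLC25A16 and TET1 are neighbours on chromosome 14 with 0 genes between them. Probe A_72_P067341 gave 0.33, -0.48 and 0.02 in LDM and -0.26, -0.57 and 0.18 in PMM. Probe A_72_P264772 gave 0.56, 1.02 and 0.80 in LDM and 0.43, 0.65 and 0.65 in PMM. The differences, -0.17 (SE 0.35) and -0.21 (SE 0.29), were within the spread.

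**Figure D2:**
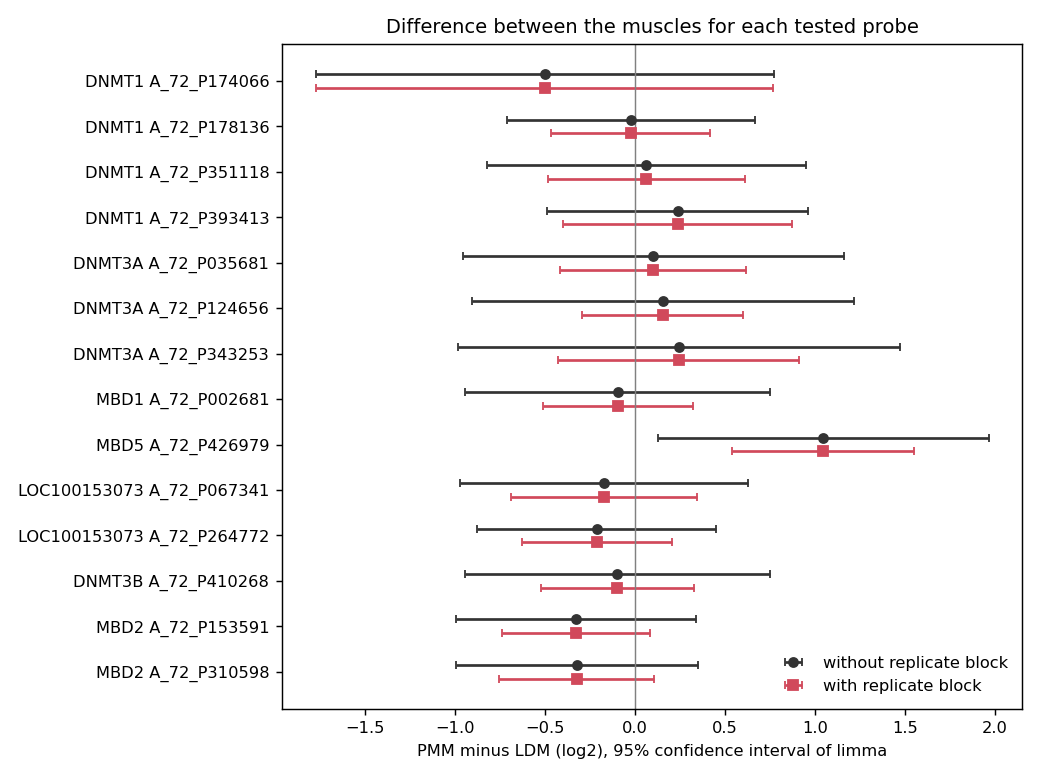
Difference PMM minus LDM (log2) of each tested probe with its 95% confidence interval from limma, without (circles) and with (squares) the replicate number as a block. All intervals include 0 except those of MBD5 A_72_P426979, a gene outside the 9, at 1.05.

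The same descriptions also found 2 probes of MBD5, which carries a methyl-CpG-binding domain but is not one of the 9 genes. Probe A_72_P426979, on a contig that covers a small part of a protein like dog MBD5, gave 0.43, 0.60 and -0.45 in LDM and 1.73, 1.24 and 0.75 in PMM. All PMM arrays were above all LDM arrays, as on 3.07% of probes measured on all arrays, and PMM was higher by 1.30, 0.64 and 1.20 in replicates 1, 2 and 3, a direction shared by all 3 numbers on 16.4% of such probes. The difference of 1.05 (SE 0.40, 95% confidence interval 0.13 to 1.97) was 2.06-fold. Among probes its limma adjusted p was 1.0 (unadjusted 0.030), and 0.21 with the replicate block, so that it was not called. Among genes, where limma was fitted apart to 1 probe per gene, the adjusted p was 1.0 without the block and 0.00447 with it. With the block, 7.15% of the 2897 genes tested were called. The unadjusted blocked p of limma for this same probe was 0.00266 among probes and 0.000104 among genes. The number of tests was therefore not the only change between the 2 fits. With the slide as a random block its adjusted p was 0.062 among probes and 0.0164 among genes, where 5.87% of genes were called. The blocked call among genes was lost without replicate 3 (adjusted p = 0.16) and with quantile normalization (adjusted p = 0.092). Each of those blocked fits called 0 genes over the whole array, so these losses were not particular to MBD5. The other MBD5 probe, A_72_P294544, was well above the background on 4 of 6 arrays and was not tested. It gave -3.59, -4.44 and -4.42 in LDM and -4.24, -4.28 and -4.49 in PMM, with the muscles overlapping.

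**Figure D3:**
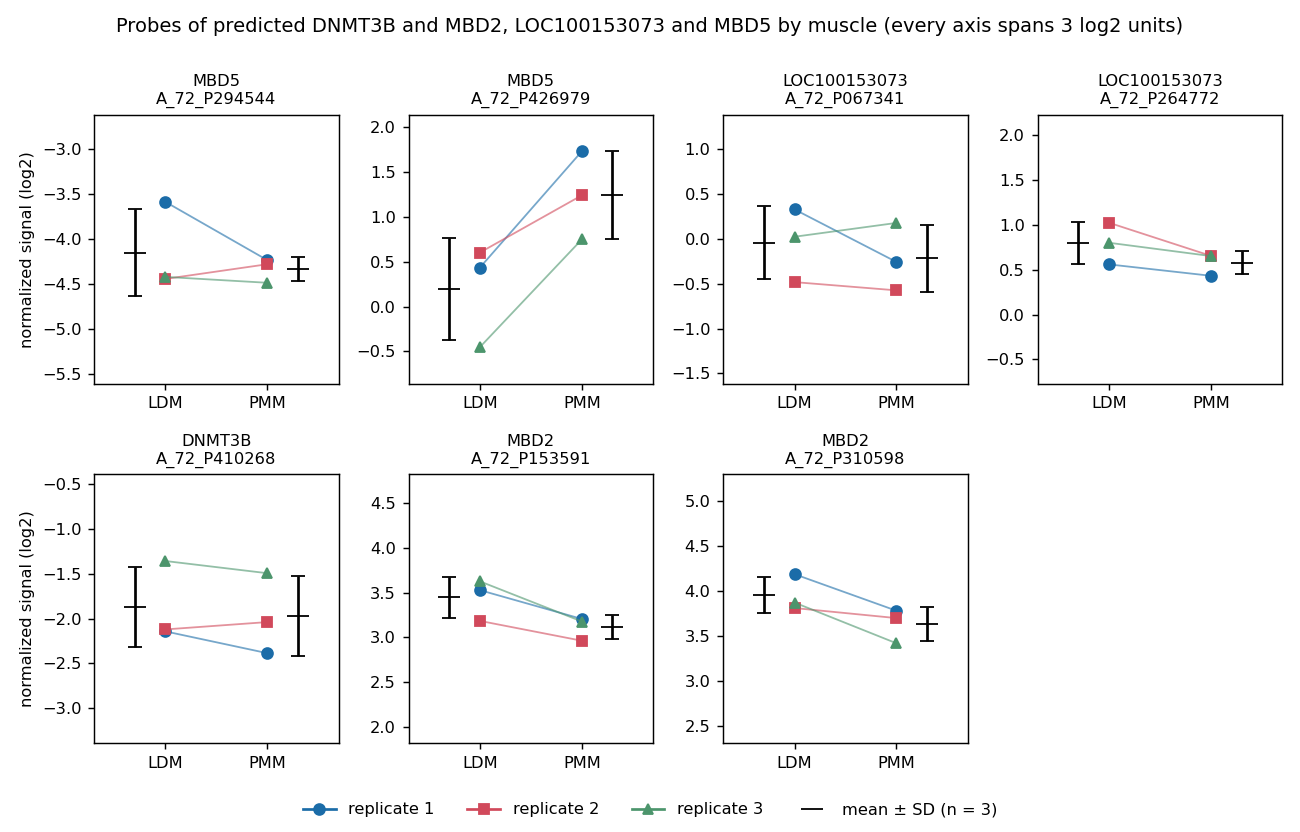
Normalized signal (log2) of the probes of the predicted DNMT3B and MBD2 models, of LOC100153073 and of MBD5 in LDM and PMM, drawn as for the other members. PMM is below LDM in all 3 replicate numbers on both MBD2 probes and above it on MBD5 A_72_P426979, but not on MBD5 A_72_P294544.

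Partners of the methylation machinery were described from 6 lists, with the brightest probe of each gene. Without the replicate block, limma called 0 genes in any list, as it called 0 of the 2897 genes tested (0.0%), of which 111 (3.83%) had an unadjusted p under 0.05. With the block it called 3 list genes, namely MBD5, SHMT2 and BHMT. They were 1 of the 2 candidate readers and 2 of the 9 methyl donor genes tested. In the other lists it called 0 of 5 methyltransferase partners, 0 of 4 corepressors, 0 of 5 demethylation genes and 0 of 4 genes bearing on TET. Over the whole array it called 207 genes (7.15%), with 129 (4.45%) higher in PMM and 78 (2.69%) lower.

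Of 11 partners of the methyltransferases, 7 had a probe and 5 were tested, with a median difference of -0.14 against -0.01 over all genes. HELLS, a chromatin remodeller needed for normal methylation, had 0.46 (SE 0.33), DMAP1, which binds DNMT1, had -0.33 (SE 0.39), and USP7, a deubiquitinase that binds DNMT1, had -0.22 (SE 0.41). UHRF1, which brings DNMT1 to replicating DNA, was well above the background on only 2 LDM arrays and 1 PMM array, and was not tested. SUV39H1, a histone methyltransferase, was well above the background on 0 arrays. Of 12 other candidate readers of CpG sites, 3 had a probe and 2 were tested, MBD5 as above and ZBTB33 (Kaiso) with 0.23 (SE 0.35).

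Of 14 corepressors of MBD1 and MBD2, 5 had a probe and 4 were tested, with a median difference of -0.23. HDAC2, a histone deacetylase, had -0.31 (SE 0.67), CHD3, a remodeller of NuRD, -0.27 (SE 0.44), and MTA1, a NuRD subunit, -0.19 (SE 0.32). SETDB1, which works with MBD1, was not tested.

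Of 16 genes of active demethylation and base excision, 5 had a probe and all 5 were tested, with a median difference of -0.26. The uracil glycosylase UNG had -0.36 (SE 0.44) and GADD45A, linked to demethylation through repair, had -0.29 (SE 0.33). SMUG1, another uracil glycosylase, gave 1.54, 1.81 and 1.57 in LDM and 1.15, 1.54 and 1.44 in PMM. All PMM arrays of SMUG1 were below all LDM arrays, as on 2.87% of the probes with a value on all arrays. Its difference of -0.26 (SE 0.28) was not called without or with the block (limma adjusted p of 1.0 and 0.53).

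Of 8 genes that supply 2-oxoglutarate or bear on the TET enzymes, 5 had a probe and 4 were tested, with a median difference of 0.26. The mitochondrial isocitrate dehydrogenases IDH3B and IDH2 had higher means in PMM, by 0.53 (SE 0.41) and 0.39 (SE 0.35), in 3 of 3 replicate numbers each, as for 20.2% of genes with a value on all arrays. OGT, an O-GlcNAc transferase that binds TET proteins, had -0.13 (SE 0.48). None of these was called without or with the block.

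Of 22 genes of the methyl donor cycle, which makes S-adenosylmethionine for the methyltransferases, 9 had a probe and all 9 were tested. SHMT2, the mitochondrial serine hydroxymethyltransferase, gave 1.96, 1.78 and 2.94 in LDM and 1.57, 1.07 and 1.90 in PMM. The SHMT2 groups overlapped, but PMM was lower in 3 of 3 replicate numbers, as for 21.4% of genes with a value on all arrays, and the difference was -0.71 (SE 0.40). Its limma adjusted p was 1.0 without and 0.0415 with the block, and the blocked call was lost without replicate 2 (adjusted p = 0.44), without replicate 3 (adjusted p = 0.21) and with quantile normalization (adjusted p = 0.12). In the blocked fit without replicate 2, SHMT2, BHMT and MBD5 had the same SE (0.355), so the spread of each gene did not enter those calls. The blocked fits without replicate 3 and with quantile normalization called 0 genes over the whole array, so those losses were not particular to SHMT2. With the slide as a random block the adjusted p of SHMT2 was 0.0179.

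BHMT, which remethylates homocysteine with betaine, gave -3.53, -3.81 and 0.05 in LDM and -4.36, -3.99 and -1.63 in PMM. Replicate 3 was far above the other numbers in both muscles, and PMM was lower in 3 of 3 numbers. The difference of -0.90 (SE 1.08) had an adjusted p of 1.0 without and 0.0362 with the block in limma. Without LDM replicate 3 the unblocked difference was 0.34, and the blocked call was lost without replicate 3 (adjusted p = 0.33) and with quantile normalization (adjusted p = 0.21). As for SHMT2, these blocked fits called 0 genes over the whole array. With the slide as a random block BHMT was not called (adjusted p = 0.22). AHCY, which clears S-adenosylhomocysteine, had -0.22 (SE 0.36). All 4 measured fibroblast markers were also lower in PMM in all 3 replicate numbers, as for 21.4% of genes with a value on all arrays. Their summed levels were 97.6 to 220 times the 75th percentile in LDM and 71.0 to 152 times in PMM. COL1A1 and COL1A2 were called by limma with the replicate block (adjusted p = 0.0129 and 0.0123) and with the slide as a random block (0.027 and 0.035). COL3A1 and DCN were not called. The part of fibroblasts in the values of SHMT2 and BHMT was not tested.

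**Figure D4:**
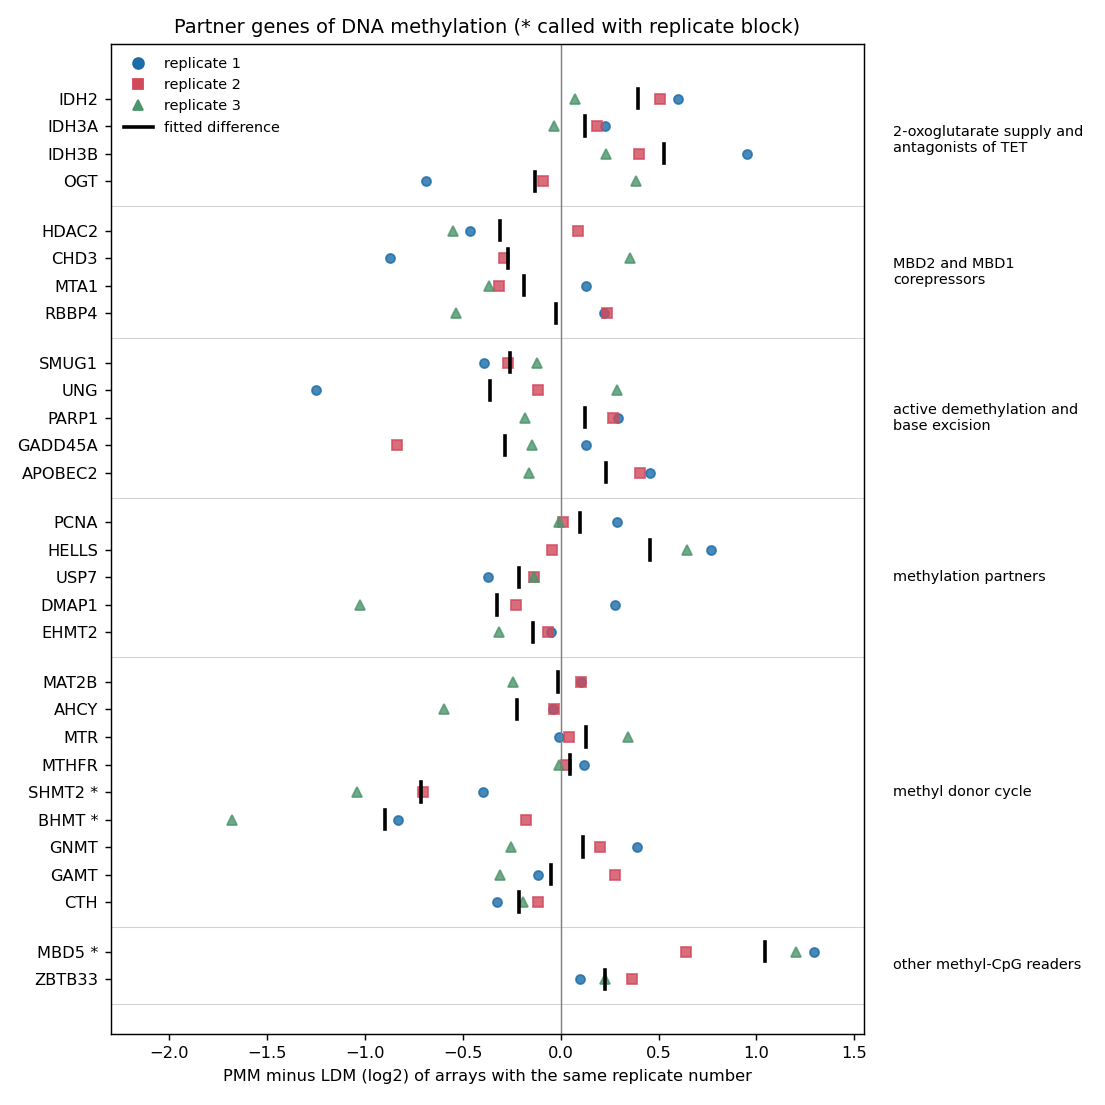
Difference PMM minus LDM (log2) of each tested partner gene, with a symbol for each replicate number and a bar for the fitted difference, grouped by list. Only MBD5, SHMT2 and BHMT were called, and only in fits with a block. For most genes the 3 numbers lie on both sides of 0.

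The gene whose signal was most like that of each member over the 6 arrays is given as a description, among 2890 genes and for the brightest probe. For DNMT1 it was ADGRE5 (Pearson's r = 0.987), for DNMT3A it was MAVS (r = 0.988) and for MBD1 it was IDE (r = 0.998). For the models it was LYZ for DNMT3B (r = 0.993) and RSC1A1 for MBD2 (r = 0.990). The arrays share replicate effects of the size shown above, and no test was run on these correlations.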

How the data were processed

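RNA of 3 LDM and 3 PMM arrays was labelled with Cy3. The authors deposited linear intensities from Agilent Feature Extraction 10.5.1.1, corrected for background but not normalized between arrays. The deposited value table of the series held the same intensities. The methods name no normalization or test for the arrays. Control and outlier spots were left out, repeated spots averaged, and each log2 intensity was set against the 75th percentile of its array. Probes that all 3 arrays of at least one muscle marked as well above the background, with at least 2 values per muscle, were tested with limma 3.58.1 in R 4.3.3, two-sided, adjusted by Benjamini-Hochberg at 0.05, over 25835 probes or, with the brightest probe of a gene, 2897 genes. Single probes were also compared by exact permutation. The fit was first tested on simulated data.

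Names came from RefSeq accessions for 2907 probes, gene numbers for 1350, file symbols for 885 and descriptions for 28, and 38433 of the 43603 probes had none. A probe belonged to a gene of the machinery when its symbol or description named it. The genes named were these, others found by the same descriptions, and of each list up to 3 with the largest difference and any called. In each of 2 lists, 1 gene is not reported here. Members and lists were chosen with earlier results of these data known. Predicted models and naming from descriptions were added after seeing the data.

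The deviations of same-numbered arrays from their muscle means correlated at 0.62, 0.70 and 0.56 for replicates 1, 2 and 3 over 25725 probes. The main fit and the exact permutation did not pair the arrays, and only the fits with the replicate block did. The median SE of the 8 probes of DNMT1, DNMT3A and MBD1 was 0.43 in the main fit and 0.21 with that block. The sources do not say whether they stand for pigs. Replicate number and scan day coincided. Slides held LDM 2 with PMM 2 and LDM 3 with PMM 3, while LDM 1 and PMM 1 lay apart. The number of arrays limits the precision, and p-values measure the spread between these arrays.

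Alternatives were quantile normalization, median centring, the percentile over probes detected on all arrays, normexp background correction, other detection filters, outliers kept, the value table, the replicate number as a block, the slide as a random block and each array left out. Added after seeing the data were the block with quantile normalization and the block without each number.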

Additional observations from a re-analysis of the deposited data

How the results depend on the processing

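No probe of DNMT1, DNMT3A, MBD1, or of the DNMT3B and MBD2 models, was called under any of the 20 alternatives run. Of 280 differences of the 14 tested probes under these alternatives, 244 kept their direction and 36 turned on 10 of the probes. The replicate block called 17 probes in place of 8, 207 genes in place of 0, 2 methyl donor genes and 1 candidate reader. With the slide as a random block these were 300 probes, 170 genes, 1 and 1. The block without replicate 1 called 529 probes, 132 genes, 2 and 1, and without replicate 2 it called 1 probe, 133 genes, 1 and 1. Without replicate 3 the block called 0 probes and 0 genes. With quantile normalization the block called 0 genes. MBD5, SHMT2 and BHMT shared 1 SE without replicate 1 (0.276) and 1 without replicate 2 (0.355). Their calls in these blocked fits therefore did not draw on the spread of each gene. The probes called were 1 with normexp and 0 with the percentile over probes detected on all arrays, with no detection filter, with detection on all 6 arrays, with outliers kept, and with the block and quantile normalization. Leaving out 1 array gave 0 to 1.

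DNMT1 A_72_P178136 turned to 0.00699 with quantile normalization, without and with the block, and to 0.00635 with the percentile over detected probes. The slide block turned DNMT1 A_72_P351118 to -0.11 and A_72_P393413 to -0.0104, and DNMT3A A_72_P035681 to -0.0653 and A_72_P343253 to -0.0262. Normexp turned DNMT3A A_72_P035681 to -0.0774 and A_72_P124656 to -0.0541, MBD1 to 0.023 and the DNMT3B model to 0.16. The median of all probes moved from -0.04 to 0.10 with normexp and to -0.10 with median centring. The replicate block without replicate 1 turned DNMT1 A_72_P351118 to -0.16 and A_72_P393413 to -0.0782, DNMT3A A_72_P035681 to -0.11 and A_72_P343253 to -0.0999, and LOC100153073 A_72_P067341 to 0.0311, and without replicate 3 it turned DNMT1 A_72_P174066 to 0.29 and A_72_P178136 to 0.0795.

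Leaving out 1 array gave -1.01 to 0.16, -0.14 to 0.12, -0.19 to 0.34 and 0.06 to 0.39 on DNMT1 A_72_P174066, A_72_P178136, A_72_P351118 and A_72_P393413. It gave -0.37 to 0.36, -0.30 to 0.47 and -0.37 to 0.56 on DNMT3A A_72_P035681, A_72_P124656 and A_72_P343253, -0.34 to 0.18 on MBD1, -0.34 to 0.16 on the DNMT3B model and -0.39 to 0.0113 on LOC100153073 A_72_P067341. On 4 probes the direction held under all 20 alternatives. Leaving out 1 array gave -0.46 to -0.24 and -0.40 to -0.21 on MBD2 model probes A_72_P153591 and A_72_P310598. The range was -0.33 to -0.10 on LOC100153073 A_72_P264772 and 0.72 to 1.29 on MBD5 A_72_P426979. DNMT3A was lower in PMM without PMM replicate 1. The cause of these changes was not tested.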
